A study of Homo sapiens with 12 samples.

Results

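The Toll-like receptor pathway genes described here are 10 genes, taken by symbol from a table of 63129 genes measured in 12 RNA sequencing libraries of 3 human lymphoma cell lines. They are the receptor genes TLR1, TLR6, TLR10, TLR7 and TLR9, the receptor-like gene CD180, the chaperone gene UNC93B1, the adaptor gene MYD88 and the kinase genes IRAK4 and IRAK1. Where a symbol had more than 1 row, the row on a primary chromosome with the highest mean was used, and 12 rows carried a member's symbol. All 10 were among the 18731 genes that reached 1 FPKM in at least 2 libraries. TLR7 did so only through libraries of inhibitor-treated cells, and CD180 only through KARPAS-422 and RL libraries. FPKM counts fragments per transcript length and per total of mapped fragments, so levels of different genes can be compared per length.

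The lines were RL, KARPAS-422 and Pfeiffer, established lines of diffuse large B cell lymphoma, of its germinal centre class, that all carry an activating EZH2 mutation in the SET domain, the catalytic part of this histone H3 lysine 27 methyltransferase. RL received 0.1% DMSO (n = 2) and was seeded at 200000 cells per ml. KARPAS-422 received 1.5 µM CPI-169 (n = 3) or 0.1% DMSO (n = 3), and Pfeiffer received 1.5 µM GSK343 (n = 2) or 0.1% DMSO (n = 2), with both lines seeded at 500000 cells per ml. Both compounds are EZH2 inhibitors, and all cells were collected after 4 days. The labels call KARPAS-422 and Pfeiffer phenotypically responsive to EZH2 inhibition and RL non-responsive. Each line received only its own compound, so compound and line cannot be told apart. The labels do not say whether replicates were separate cultures. The p-values therefore reflect how far these libraries differ, and that spread may be technical.

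Toll-like receptors bind microbial products through leucine-rich repeats. TLR1, TLR6 and TLR10 sit at the cell surface, where TLR1 and TLR6 pair with TLR2 to bind bacterial lipopeptides, while TLR7 binds single-stranded RNA and TLR9 binds DNA with unmethylated CpG in endosomes. UNC93B1 carries the endosomal receptors out of the endoplasmic reticulum. Engaged receptors recruit MYD88, which assembles IRAK4 and IRAK1 into a signalling complex upstream of NF-kappaB and interferon regulatory factors. CD180 is a Toll-like receptor relative of B cells that lacks the signalling domain and works with the secreted partner LY86. B cells are known to express TLR1, TLR6, TLR7, TLR9, TLR10 and CD180, and an activating MYD88 mutation is common in the activated B cell-like class of this lymphoma.

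Between 14018 and 16391 genes reached 1 FPKM per library. Libraries of a group differed by a root mean square of 0.164 to 0.245 on the log2(FPKM + 1) scale, apart from the GSK343 libraries, which differed by 0.497. Absolute depth is unknown. Within a line, with its first DMSO library set to 1, relative depth spanned 0.773 to 1 in RL, 0.647 to 1 in KARPAS-422 and 1 to 1.33 in Pfeiffer. All 7 B cell markers and all 6 germinal centre markers averaged at least 1 FPKM in every group. Pfeiffer libraries also held 57.0 to 141 FPKM of epithelial and stromal markers in sum, led by EPCAM, and 298 to 413 FPKM of T and NK cell markers, almost wholly CD8A. EZH2 mRNA averaged 41.0 ± 0.540 FPKM with CPI-169 and 47.4 ± 2.61 FPKM with DMSO (SD, n = 3 each; limma, Benjamini-Hochberg adjusted p = 0.175). It averaged 17.3 ± 4.99 FPKM with GSK343 and 31.2 ± 0.555 FPKM with DMSO (SD, n = 2 each; limma, adjusted p = 0.00169). The compounds block the enzyme's activity, so EZH2 mRNA does not check them.

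RefSeq promoter windows (GRCh38.p14) were matched for 6 of the 10 genes: TLR6, TLR9, CD180, MYD88, IRAK1 and IRAK4. The 250 bases before the start site were searched on both strands for 4 motifs. These were GAAANNGAA, the core bound by interferon-regulated factors, GGGANTTCC and GGGANTTTC, core forms of NF-kappaB sites, and GAGGAAGT, a core bound by the B cell and myeloid factor PU.1. Of 35114 windows of the same length, 6.88% held GAAANNGAA, 1.59% held GGGANTTCC, 1.12% held GGGANTTTC and 2.17% held GAGGAAGT. The windows of MYD88, CD180 and TLR9 each held 1 match, printed in capitals, and those of TLR6, IRAK1 and IRAK4 held none, so no match overlapped another. The matches start 61 bases before the start site in MYD88, 36 bases in CD180 and 9 bases in TLR9, where the motif is on the opposite strand. These 3 windows and that of TLR6, the receptor gene with the lowest ratio of CPI-169 to DMSO, are shown 5′ to 3′ in the direction of the gene. They lie at chr3:38138411-38138660 on the plus strand for MYD88, and on the minus strand at chr5:67196800-67197049 for CD180, chr3:52225646-52225895 for TLR9 and chr4:38856818-38857067 for TLR6.
MYD88: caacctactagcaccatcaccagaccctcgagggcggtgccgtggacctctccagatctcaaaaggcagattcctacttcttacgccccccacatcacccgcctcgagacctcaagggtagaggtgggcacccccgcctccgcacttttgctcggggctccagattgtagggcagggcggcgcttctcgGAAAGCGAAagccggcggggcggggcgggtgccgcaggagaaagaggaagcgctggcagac
CD180: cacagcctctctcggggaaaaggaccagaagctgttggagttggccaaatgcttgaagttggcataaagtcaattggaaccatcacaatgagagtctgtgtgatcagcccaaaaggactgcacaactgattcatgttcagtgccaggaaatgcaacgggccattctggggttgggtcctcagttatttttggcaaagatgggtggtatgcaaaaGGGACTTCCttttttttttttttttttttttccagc
TLR9: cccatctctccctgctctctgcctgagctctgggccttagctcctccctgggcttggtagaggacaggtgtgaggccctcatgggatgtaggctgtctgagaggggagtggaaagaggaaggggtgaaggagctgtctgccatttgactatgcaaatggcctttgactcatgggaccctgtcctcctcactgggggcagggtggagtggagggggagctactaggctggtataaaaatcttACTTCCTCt
TLR6: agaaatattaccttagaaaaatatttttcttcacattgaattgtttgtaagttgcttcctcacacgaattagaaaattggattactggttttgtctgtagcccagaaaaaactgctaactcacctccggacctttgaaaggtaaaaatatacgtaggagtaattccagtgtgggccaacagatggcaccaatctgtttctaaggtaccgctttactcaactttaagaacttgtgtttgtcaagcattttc

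The TLR6 window was poor in G and C (36.4%, with 7.2% of all windows lower) and held 4 CpG dinucleotides. The TLR9 window held 0 CpG at 56.8% GC, and the CD180 window held 2 at 44.8%. MYD88 had 19 CpG at 64.4% GC, IRAK4 22 at 61.6% and IRAK1 43 at 82.4%, a GC content above that of 98.6% of the windows. A match is a description of the letters and does not show that a factor binds there.

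In the cells that received DMSO, CD180 differed more between lines than any other member, and MYD88, UNC93B1 and IRAK1 lay within 0.41 of each other between lines on the log2(FPKM + 1) scale. CD180 (hg19 chr5:66478102-66492627) was at 31.3 and 30.6 FPKM in RL and at 54.4, 57.1 and 57.3 FPKM in KARPAS-422. In Pfeiffer it was at 0.128 and 0.104 FPKM, below all libraries of the other lines. The log2 difference was 4.84 for RL minus Pfeiffer and 5.68 for KARPAS-422 minus Pfeiffer (limma, Benjamini-Hochberg adjusted p = 1.11e-11 and 1.14e-12). LY86, the CD180 partner, was singled out after its values were seen. It was at 25.8 and 26.1 FPKM in RL, between 55.4 and 75.0 FPKM in KARPAS-422 and at 0.0996 and 0.0785 FPKM in Pfeiffer.

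The 3 surface receptor genes among the members, TLR1, TLR6 and TLR10, followed the order KARPAS-422, RL, Pfeiffer. TLR1 (hg19 chr4:38792297-38858438) was at 7.47 and 8.16 FPKM in RL, at 18.3, 17.3 and 19.1 FPKM in KARPAS-422 and at 1.71 and 2.27 FPKM in Pfeiffer. TLR6 (hg19 chr4:38825335-38858438) was at 5.43 and 5.25 FPKM in RL, at 18.4, 18.5 and 18.3 FPKM in KARPAS-422 and at 1.42 and 1.48 FPKM in Pfeiffer. TLR10 (hg19 chr4:38773859-38784611) was at 23.8 and 25.0 FPKM in RL, at 52.3, 62.1 and 61.8 FPKM in KARPAS-422 and at 16.6 and 14.3 FPKM in Pfeiffer. No DMSO libraries of 2 lines overlapped for these 3 genes, and TLR10 had the highest level per length of the 5 Toll-like receptors in each line. The hg19 locus of TLR6 lies within that of TLR1, and 5.33% of the 50-base words of TLR1 transcripts also occur in TLR6, so fragments of the pair may have been split between them.

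The endosomal receptors stood far apart in level. TLR7 (hg19 chrX:12885201-12908499) was at 0.0687 and 0.0370 FPKM in RL, at 0.690, 0.748 and 0.723 FPKM in KARPAS-422 and at 0.0639 and 0.0992 FPKM in Pfeiffer, so no DMSO library reached 1 FPKM. The KARPAS-422 mean was nevertheless 8.83 times the Pfeiffer mean, and the RL mean was 0.0735 times the KARPAS-422 mean. The deposited table has 2 rows named TLR9. The row with the higher mean (ENSG00000173366, hg19 chr3:52255096-52265206) was at 8.98 and 7.88 FPKM in RL, at 17.97, 17.98 and 15.3 FPKM in KARPAS-422 and at 4.12 and 5.14 FPKM in Pfeiffer. The other row (ENSG00000239732, hg19 chr3:52255095-52273183), which GENCODE 29 names TLR9, was at 8.71 and 9.22 FPKM in RL, at 23.8, 15.7 and 16.5 FPKM in KARPAS-422 and at 0.401 and 0.245 FPKM in Pfeiffer. In Pfeiffer the rows thus stood apart, with only the first above 1 FPKM. GENCODE 29 gives the first ID to an overlapping locus, and 85.3% of its 50-base words occur in the second, so the TLR9 level is uncertain.

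MYD88, UNC93B1 and IRAK1 were close between lines, whereas IRAK4 was lower in Pfeiffer. MYD88 (hg19 chr3:38179968-38184513) was at 24.4 and 24.1 FPKM in RL, at 23.4, 25.2 and 22.6 FPKM in KARPAS-422 and at 17.3 and 22.0 FPKM in Pfeiffer. UNC93B1 (hg19 chr11:67758574-67772452) was at 21.7 and 21.1 FPKM in RL, at 15.6, 15.8 and 16.1 FPKM in KARPAS-422 and at 17.996 and 20.2 FPKM in Pfeiffer. RL was above both other lines for UNC93B1, while for MYD88 RL and KARPAS-422 overlapped. IRAK1 (hg19 chrX:153275950-153285431) was at 62.1 and 60.6 FPKM in RL, at 65.1, 58.6 and 60.7 FPKM in KARPAS-422 and at 64.7 and 69.4 FPKM in Pfeiffer, with RL and KARPAS-422 overlapping and KARPAS-422 and Pfeiffer overlapping. IRAK4 (hg19 chr12:44152746-44183346) was at 23.4 and 22.9 FPKM in RL, at 19.5, 20.0 and 20.8 FPKM in KARPAS-422 and at 8.27 and 7.54 FPKM in Pfeiffer, with no overlap.

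**Figure D1:**
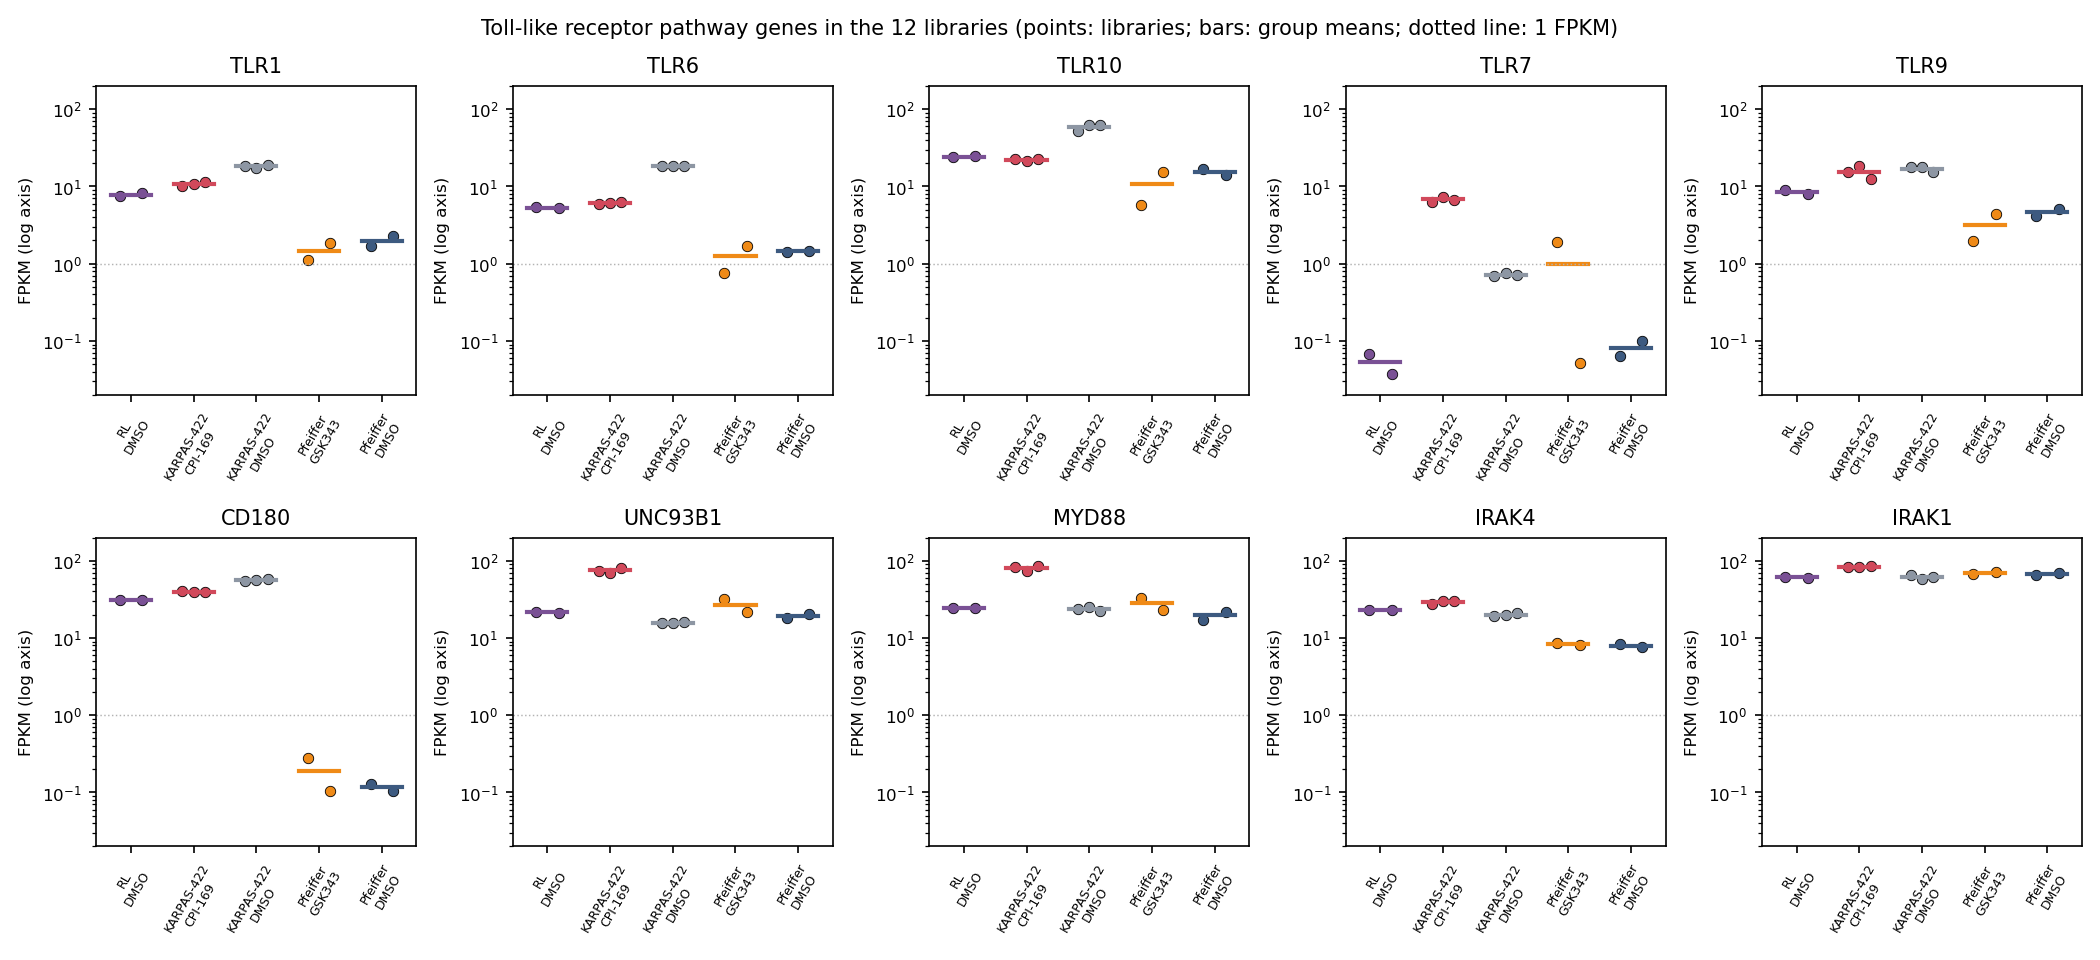
FPKM of the 10 genes on a log axis in RL, KARPAS-422 with CPI-169 or DMSO, and Pfeiffer with GSK343 or DMSO; points are libraries and bars are group means. TLR7, MYD88 and UNC93B1 sit highest in the CPI-169 libraries, and CD180 lies below 1 FPKM in all Pfeiffer libraries.

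Of the 10 genes, 7 differed between RL and KARPAS-422, 2 higher and 5 lower in RL. Of all tested genes 66.8% were called, 33.6% higher and 33.2% lower. The libraries did not overlap for 8 of the 10 genes, against 80% of all tested genes. The 5 lower were TLR1 (log2 difference -1.13), TLR6 (-1.61), TLR9 (-0.94), TLR10 (-1.23) and CD180 (-0.84). UNC93B1 (0.41, limma, Benjamini-Hochberg adjusted p = 0.0177) and IRAK4 (0.19, adjusted p = 0.0377) were higher. MYD88 (0.03, adjusted p = 0.873) and IRAK1 (near 0, adjusted p = 1) did not pass. The UNC93B1 call was lost without RL replicate 1 or 2 (adjusted p = 0.0886 and 0.0648). That of IRAK4 was lost without RL replicate 1 or 2 (0.153 and 0.105), KARPAS-422 DMSO replicate 1 or 2 (0.0851 and 0.0805) or CPI-169 replicate 2 or 3 (0.0517 and 0.0514). TLR7 differed by -0.71 and missed the threshold (adjusted p = 0.0604), and passed without GSK343 replicate 1 or 2 of Pfeiffer (6.63e-06 and 7.60e-06). It also passed with only the RL and KARPAS-422 DMSO libraries fitted (7.40e-05), with quantile normalization (0.0404) and with a pseudocount of 0.1, where the TLR7 difference was -2.43 (0.0157). The spread is pooled over all groups, so the gap between the GSK343 libraries enters every comparison.

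Between RL and Pfeiffer, 5 of the 10 genes were higher in RL and 0 lower, and likewise 0 were lower at an unadjusted p under 0.05 in limma. Of all tested genes 74.3% were called, 35.6% higher and 38.7% lower, and the libraries did not overlap for 9 of the 10 genes, against 91% of all tested genes. The genes higher in RL were TLR1 (log2 difference 1.56), TLR6 (1.37), TLR9 (0.75), CD180 and IRAK4 (1.44, limma, Benjamini-Hochberg adjusted p = 4.36e-08). TLR9 passed at an adjusted p of 0.0188 and not without RL replicate 1 (0.0963) or Pfeiffer DMSO replicate 1 (0.115). TLR10 differed by 0.63 (adjusted p = 0.0815) and MYD88 by 0.30 (0.098), and each passed without GSK343 replicate 1 (2.06e-04 and 0.0278) or replicate 2 (2.07e-04 and 0.0278). MYD88 also passed without Pfeiffer DMSO replicate 2 (0.0388), and TLR10 with only the libraries compared (0.00171) and with median scaling (0.0451). TLR7 (-0.04, adjusted p = 0.924), UNC93B1 (0.16, 0.345) and IRAK1 (-0.13, 0.190) did not pass. The other TLR9 row differed by 2.92 (adjusted p = 6.77e-08).

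Between KARPAS-422 and Pfeiffer, 6 of the 10 were higher in KARPAS-422 and 0 lower, also at an unadjusted p under 0.05 in limma. Of all tested genes 83% were called, 39.8% higher and 43.2% lower, and the libraries did not overlap for 9 of the 10 genes, against 89.9% of all tested genes. The genes higher in KARPAS-422 were TLR1 (log2 difference 2.69), TLR6 (2.98), TLR9 (1.69), TLR10 (1.86), CD180 and IRAK4 (1.25). The other TLR9 row differed by 3.87 (limma, Benjamini-Hochberg adjusted p = 2.16e-09). TLR7 differed by 0.67 (adjusted p = 0.0608), MYD88 by 0.27 (0.0968), UNC93B1 by -0.25 (0.0977), and IRAK1 by -0.12 (0.147). The first 3 passed without GSK343 replicate 1 (6.36e-06, 0.0281 and 0.00787) and without replicate 2 (7.31e-06, 0.0281 and 0.00786), and MYD88 without Pfeiffer DMSO replicate 2 (0.0358). TLR7 also passed with only the libraries compared (5.15e-05), with quantile normalization (0.00969) and with a pseudocount of 0.1, where its difference was 2.18 (0.0212). UNC93B1 passed with only the libraries compared (0.018) and with quantile normalization (0.0235). In these 3 comparisons the line and the preparation of its libraries cannot be told apart, and RL was seeded at a lower density than the other lines.

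With CPI-169 in KARPAS-422, the endosomal receptor gene TLR7, its chaperone gene UNC93B1 and the adaptor gene MYD88 rose, and the surface receptor genes TLR1, TLR6 and TLR10 fell. The test called 5 members higher and 4 lower, and 1, TLR9, did not pass. Of the 5, TLR7 was tested only through inhibitor-treated libraries. The share called among all tested genes was 54.2%, with 26.9% higher and 27.3% lower. The CPI-169 and DMSO libraries did not overlap for 9 of the 10, against 65% of all tested genes. The median log2 difference was 0.15 over the 10 genes and 0.01 over all tested genes. The 9 calls held in each of the 20 alternative settings tried.

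UNC93B1 was at 74.1, 69.5 and 80.8 FPKM with CPI-169, against 15.6, 15.8 and 16.1 FPKM with DMSO. All 3 CPI-169 libraries lay above every other library of the series, and the mean was 4.72 times that with DMSO. The log2 difference was 2.17 (SE 0.119, limma, Benjamini-Hochberg adjusted p = 2.24e-07). Of the 50-base words of UNC93B1 transcripts, 11.8% occur in other genes, foremost its copy UNC93B7, so its level is uncertain. UNC93B5, another copy within 500 kb, rose by 1.11 on the log2 scale. Of 18 other genes tested within 500 kb, 6 were higher, 5 lower and 7 did not pass. Among all tested genes 26.9% were higher and 27.3% lower.

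MYD88 was at 82.3, 74.5 and 85.5 FPKM with CPI-169, against 23.4, 25.2 and 22.6 FPKM with DMSO. The groups were far apart, with a ratio of means of 3.41 and a log2 difference of 1.73 (SE 0.124, limma, Benjamini-Hochberg adjusted p = 1.33e-06). Its promoter window, printed above, is the one with the GAAANNGAA match. ACAA1, a peroxisomal thiolase gene that lies 1.2 kb from MYD88, rose by 1.16 on the log2 scale. OXSR1, the nearest tested gene on the other side at 22.1 kb, did not pass (0.04, limma, adjusted p = 0.716). Of 10 other genes tested within 500 kb, 5 were higher and 5 did not pass, where 26.9% of all tested genes were higher and 27.3% lower.

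TLR7 was at 6.36, 7.30 and 6.73 FPKM with CPI-169, against 0.690, 0.748 and 0.723 FPKM with DMSO. Its DMSO libraries were all below 1 FPKM and its CPI-169 libraries all above 6, a ratio of means of 9.44. On the log2(FPKM + 1) scale, which understates changes of low genes, the difference was 2.18 (SE 0.272, limma, Benjamini-Hochberg adjusted p = 6.11e-05). TLR7 entered the test only through inhibitor-treated libraries, where it was high, so this p-value lends its rise no separate support.

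Plasmacytoid dendritic cells and monocytes also express TLR7. CLEC4C, the defining plasmacytoid dendritic cell marker, is listed at 0 in all 6 KARPAS-422 libraries, and GZMB likewise. LILRA4, another marker of these cells, was at 0.373, 0.368 and 0.391 FPKM with CPI-169, against 0.0573, 0.101 and 0.0950 FPKM with DMSO, below the level at which genes were tested. The 5 markers of that cell type, mostly IL3RA, summed to 1.60 to 2.24 FPKM with CPI-169 and to 1.84 to 2.54 FPKM with DMSO. The 8 monocyte and macrophage markers summed to 5.32 to 5.94 FPKM with CPI-169 and to 2.20 to 2.70 FPKM with DMSO. CD33 alone of these averaged 1 FPKM or more, at 5.13 ± 0.288 FPKM with CPI-169 and 2.32 ± 0.302 FPKM with DMSO. The 6 T and NK cell markers summed to 53.2 to 59.95 FPKM with CPI-169 and to 35.5 to 37.2 FPKM with DMSO, mostly CD3G, and 4 of the 5 tested were higher. The 7 B cell markers summed to 1529 to 1659 FPKM with CPI-169 and to 1898 to 2090 FPKM with DMSO, with 1 higher and 3 lower. The 6 germinal centre markers summed to 404 to 412 FPKM with CPI-169 and to 351 to 373 FPKM with DMSO, with 4 higher and 1 lower. Beside these marker counts, 26.9% of all tested genes were higher and 27.3% lower with CPI-169. The part of the marker shifts in the pathway results was not tested. In bulk RNA fewer cells of a type and less RNA per cell cannot be told apart.

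TLR6 was at 5.88, 6.12 and 6.26 FPKM with CPI-169, against 18.4, 18.5 and 18.3 FPKM with DMSO. The CPI-169 libraries lay slightly above both RL libraries, at 0.331 times the DMSO mean, and the log2 difference was -1.45 (SE 0.129, limma, Benjamini-Hochberg adjusted p = 5.47e-06). TLR10 was at 22.7, 21.2 and 22.5 FPKM with CPI-169, against 52.3, 62.1 and 61.8 FPKM with DMSO, a log2 difference of -1.37 (SE 0.248, limma, adjusted p = 8.03e-04). TLR1 was at 10.1, 10.7 and 11.4 FPKM with CPI-169, against 18.3, 17.3 and 19.1 FPKM with DMSO, a log2 difference of -0.71 (SE 0.117, limma, adjusted p = 4.26e-04). The groups did not overlap for any of these 3 genes.

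CD180 was at 40.7, 38.8 and 39.8 FPKM with CPI-169, against 54.4, 57.1 and 57.3 FPKM with DMSO. The groups did not overlap, and the fall of 0.49 on the log2 scale was smaller than that of TLR6 or TLR10 (SE 0.070, limma, Benjamini-Hochberg adjusted p = 1.59e-04). LY86 was at 83.6, 70.9 and 86.3 FPKM with CPI-169, against 55.4, 73.7 and 75.0 FPKM with DMSO, and did not pass. The first TLR9 row was at 15.3, 18.6 and 12.3 FPKM with CPI-169, against 17.97, 17.98 and 15.3 FPKM with DMSO, and the groups overlapped (log2 difference -0.15, limma, adjusted p = 0.581). The other row was at 13.7, 14.5 and 16.6 FPKM with CPI-169, against 23.8, 15.7 and 16.5 FPKM with DMSO (-0.28, limma, adjusted p = 0.116).

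The kinase genes rose by less than MYD88. IRAK4 was at 27.5, 29.8 and 30.3 FPKM with CPI-169, against 19.5, 20.0 and 20.8 FPKM with DMSO, a ratio of means of 1.45 (log2 difference 0.52, SE 0.066, limma, Benjamini-Hochberg adjusted p = 7.28e-05). IRAK1 was at 82.9, 83.6 and 85.7 FPKM with CPI-169, against 65.1, 58.6 and 60.7 FPKM with DMSO, a ratio of 1.37 (log2 difference 0.45, SE 0.067, limma, adjusted p = 2.26e-04). Both genes were above all DMSO libraries of KARPAS-422 in each CPI-169 library.

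The surface receptor genes TLR10, TLR1 and TLR6 are neighbours on chromosome 4 (hg19 chr4:38773859-38858438). Within 500 kb of them 7 other genes were tested. FAM114A1, which starts 10.9 kb beyond TLR6, rose with CPI-169 by 0.80 on the log2 scale (limma, Benjamini-Hochberg adjusted p = 1.31e-05), to 1.29 FPKM against 0.322 FPKM with DMSO. RP11-360F5.3 fell by 0.61 and the ciliary transport gene WDR19 fell by 0.86, at 277.1 and 325.6 kb from the cluster. KLF3, TMEM156, KLHL5 and RFC1 did not pass. KLF3 averaged 0.0659 FPKM with CPI-169 and 0.0989 FPKM with DMSO, too low for a fall to show. FAM114A1 averaged 1 FPKM or more only with CPI-169, so the filter favoured a rise for it. TMEM156, KLHL5 and RFC1 averaged 201, 88.6 and 27.7 FPKM with DMSO, and no fall was called for them.

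**Figure D2:**
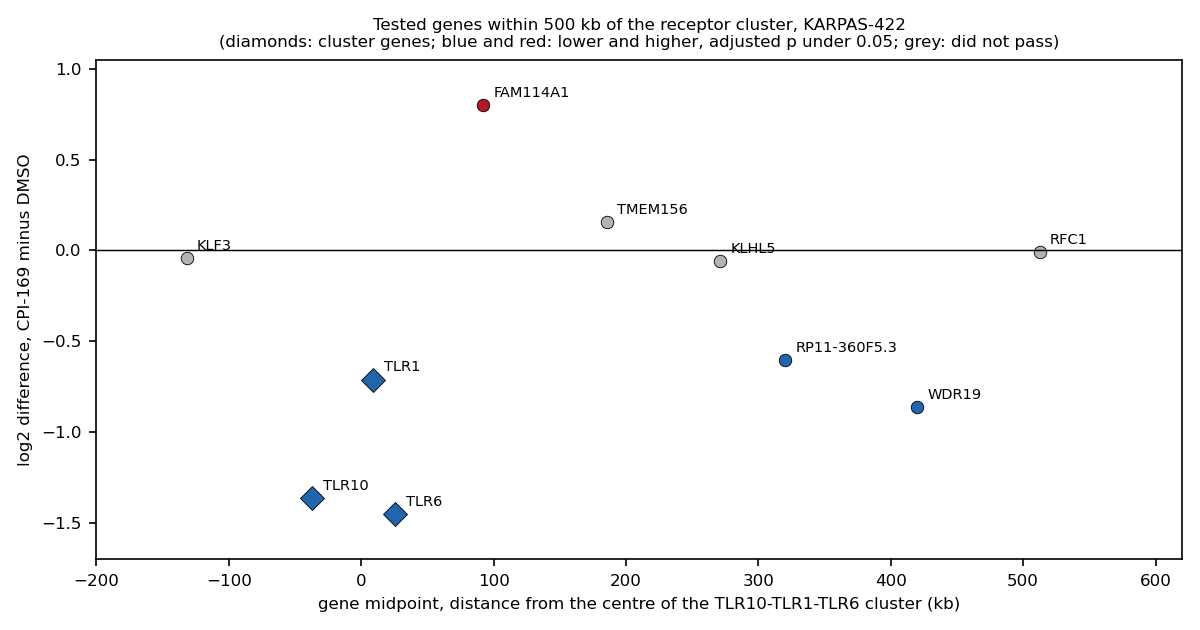
Log2 differences, CPI-169 minus DMSO in KARPAS-422, of the 10 tested genes of the receptor cluster and its surroundings against the distance of their midpoints from the cluster's centre in kb. TLR10, TLR1 and TLR6 lie below 0, FAM114A1 lies above it, and WDR19 and RP11-360F5.3 are the other 2 genes that fell.

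With GSK343 in Pfeiffer, MYD88 and UNC93B1 rose and the other 8 genes did not pass. Among all tested genes 29.5% were called, 12% higher and 17.5% lower. The GSK343 and DMSO libraries did not overlap for the same 2 genes, against 57.8% of all tested genes. The median log2 difference was 0.06 over the 10 genes and -0.03 over all tested genes. The GSK343 libraries differed from each other, so both are given for each gene.

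MYD88 was at 32.8 and 23.3 FPKM with GSK343 in replicates 1 and 2, against 17.3 and 22.0 FPKM with DMSO. Both GSK343 libraries were above both DMSO libraries, replicate 2 by little. The log2 difference was 0.48 (SE 0.152, limma, Benjamini-Hochberg adjusted p = 0.0364). UNC93B1 was at 31.7 and 21.6 FPKM with GSK343, against 17.996 and 20.2 FPKM with DMSO. Again both libraries lay above, replicate 1 by more, with a log2 difference of 0.44 (SE 0.146, limma, adjusted p = 0.0448). ACAA1, next to MYD88, rose by 0.66 on the log2 scale.

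Both calls were close to the threshold. MYD88 lost its call in 10 of the 20 alternative settings (adjusted p from 0.00297 to 0.276 with limma) and UNC93B1 in 14 of 20 (5.84e-04 to 0.301). With only the 4 Pfeiffer libraries fitted, neither passed (0.276 and 0.301), and 0 of all tested genes did, although 4634 had an unadjusted p under 0.05. The count of members called was 0 without any one of GSK343 replicate 1, Pfeiffer DMSO replicate 1, KARPAS-422 DMSO replicate 3, CPI-169 replicates 1 or 3 and RL replicates 1 or 2. It was 1 without KARPAS-422 DMSO replicates 1 or 2, CPI-169 replicate 2 or Pfeiffer DMSO replicate 2, and 7 without GSK343 replicate 2. At an unadjusted p under 0.05 in limma, members numbered 0 without GSK343 replicate 1, 1 without Pfeiffer DMSO replicate 1 and 2 in the other fits with a count of 0 that left out a library.

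TLR10 was at 5.70 and 15.6 FPKM with GSK343 in replicates 1 and 2, against 16.6 and 14.3 FPKM with DMSO. TLR1 was at 1.10 and 1.84 FPKM with GSK343, against 1.71 and 2.27 FPKM with DMSO, and TLR6 was at 0.764 and 1.72 FPKM, against 1.42 and 1.48 FPKM. In replicate 1 all 3 surface receptors were below both DMSO libraries, whereas replicate 2 was between the DMSO values for TLR10 and TLR1 and above both for TLR6. The pooled log2 differences were -0.64 for TLR10, -0.29 for TLR1 and -0.16 for TLR6 (limma, Benjamini-Hochberg adjusted p = 0.140, 0.161 and 0.476).

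TLR7 was at 1.91 and 0.0520 FPKM with GSK343, against 0.0639 and 0.0992 FPKM with DMSO. Replicate 1 was the only Pfeiffer library above 1 FPKM, and replicate 2 was below both DMSO libraries (pooled log2 difference 0.70, limma, Benjamini-Hochberg adjusted p = 0.142). The first TLR9 row was at 1.99 and 4.396 FPKM with GSK343, against 4.12 and 5.14 FPKM with DMSO. Replicate 1 was below both DMSO libraries and replicate 2 between them (-0.48, limma, adjusted p = 0.176). The other TLR9 row was at 0.0338 and 0.0605 FPKM with GSK343, against 0.401 and 0.245 FPKM with DMSO (-0.33, limma, adjusted p = 0.172).

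CD180 stayed under 1 FPKM in Pfeiffer, at 0.276 and 0.103 FPKM with GSK343, against 0.128 and 0.104 FPKM with DMSO. IRAK4 was at 8.54 and 8.21 FPKM with GSK343, against 8.27 and 7.54 FPKM with DMSO. IRAK1 was at 66.7 and 71.7 FPKM with GSK343, against 64.7 and 69.4 FPKM with DMSO. For these 3 genes the groups overlapped (limma, Benjamini-Hochberg adjusted p = 0.477, 0.526 and 0.722).

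GSK343 replicate 1 was above both DMSO libraries for 5 of the 10 genes and below both for 4, where 32.7% and 52.3% of all tested genes were so placed. Replicate 2 was above both for 4 and below both for 2, against 44.4% and 44.5% of all tested genes. Against the DMSO mean, the log2 differences in replicate 1 were 1.43 for TLR7, 0.72 for MYD88, 0.70 for UNC93B1, -1.29 for TLR10 and -0.90 for TLR9. In replicate 2 they were -0.04 for TLR7, 0.25 for MYD88, 0.17 for UNC93B1, 0.01 for TLR10 and -0.05 for TLR9. Without replicate 2, with the spread of the single remaining library taken from the other groups, 3 of the 10 genes were higher and 4 lower, in a fit that called 31.8% of all tested genes, 11.5% higher and 20.3% lower. The 5 epithelial and stromal markers summed to 57.0 and 79.1 FPKM with GSK343 in replicates 1 and 2, against 140 and 141 FPKM with DMSO, and of 4 tested 2 were higher and 1 lower. The 6 germinal centre markers summed to 141 and 317 FPKM with GSK343, against 150 and 153 FPKM with DMSO, with 2 higher and 3 lower. These marker counts are from the fit with both GSK343 libraries, where 12% of all tested genes were higher and 17.5% lower. The part of the markers in the gap between the GSK343 libraries was not tested.

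**Figure D3:**
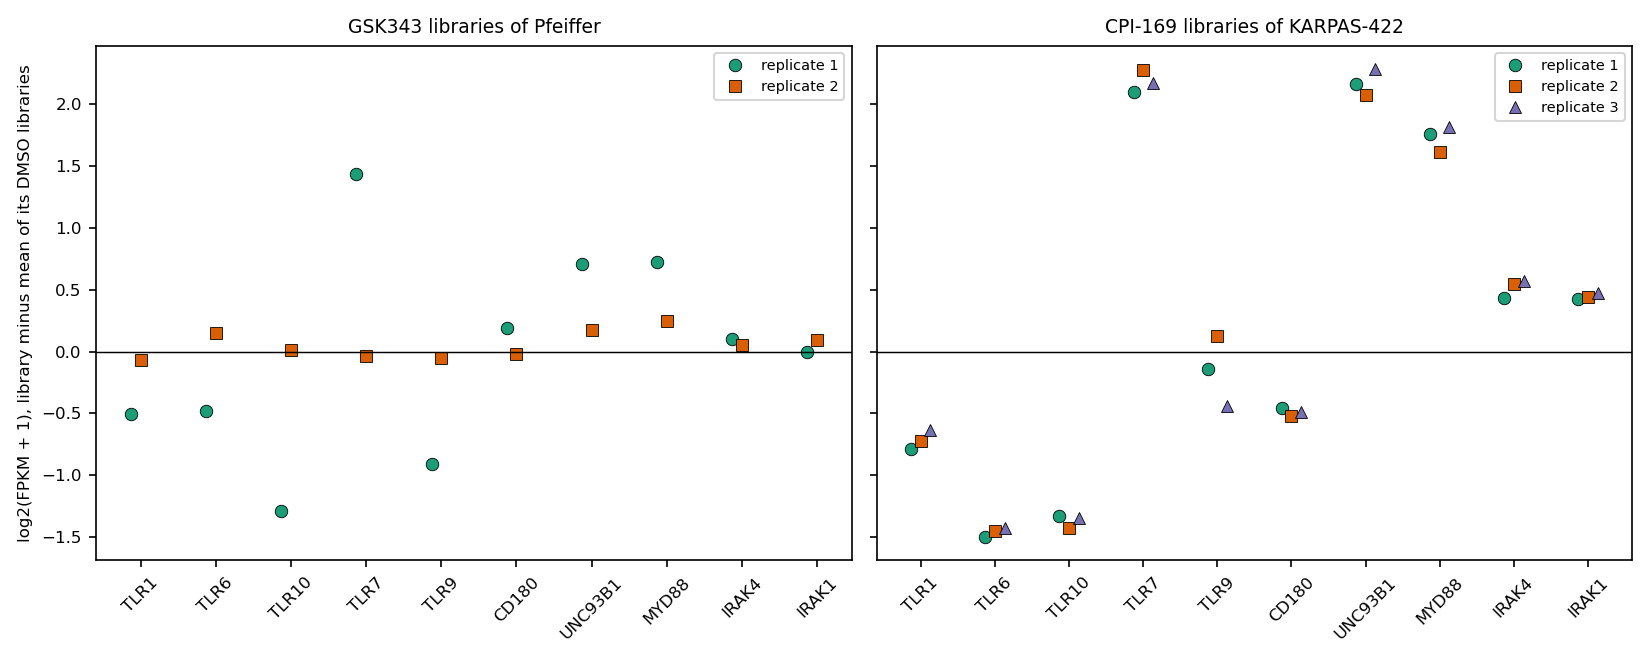
Log2(FPKM + 1) of each inhibitor-treated library minus the mean of its line's DMSO libraries, for GSK343 in Pfeiffer (left, 2 replicates) and CPI-169 in KARPAS-422 (right, 3 replicates). The CPI-169 replicates lie close together except for TLR9, while GSK343 replicate 1 lies away from 0 for TLR7 (1.43), TLR10 (-1.29) and TLR9 (-0.90) and replicate 2 does not (-0.04, 0.01 and -0.05).

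The difference between the inhibitor effects, Pfeiffer minus KARPAS-422, passed for 7 of the 10 genes, 2 positive and 5 negative. Among all tested genes 42.6% passed, 18.8% positive and 23.8% negative. UNC93B1 rose by 0.44 with GSK343 and by 2.17 with CPI-169, a difference of -1.73 (SE 0.188, limma, Benjamini-Hochberg adjusted p = 7.23e-05). MYD88 rose by 0.48 with GSK343 and by 1.73 with CPI-169, a difference of -1.24 (limma, adjusted p = 6.78e-04). IRAK4 (-0.44, limma adjusted p = 0.00661), IRAK1 (-0.40, 0.0117) and TLR7 (-1.48, 0.0181) also had lower effects in Pfeiffer on the log2(FPKM + 1) scale. TLR6 (1.29, 6.76e-04) and CD180 (0.58, 0.00209) had higher ones, and each fell with CPI-169 and did not pass with GSK343.

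TLR1 (0.43, limma, Benjamini-Hochberg adjusted p = 0.0874), TLR10 (0.73, 0.159) and TLR9 (-0.33, 0.440) missed the threshold. Without GSK343 replicate 1, TLR1 (0.64, adjusted p = 0.00549) and TLR10 (1.38, 5.64e-05) passed. Without replicate 2, TLR9 passed (-0.75, 0.0336). The TLR7 call was lost without Pfeiffer DMSO replicate 1 or 2 (0.0545 and 0.0573), and the difference of TLR7 was -0.75 without GSK343 replicate 2. CD180 was below 1 FPKM in Pfeiffer, where a log2(FPKM + 1) difference is small by its scale. That limit also touches TLR6 and TLR7, at means of 1.45 and 0.0815 FPKM with DMSO in Pfeiffer, against 18.4 and 0.720 FPKM in KARPAS-422. For TLR7 the ratio of means was 12.1 with GSK343, from replicate 1 alone, and 9.44 with CPI-169. Only inhibitor-treated libraries brought TLR7 into the test, so its p-value here lends no separate support.

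**Figure D4:**
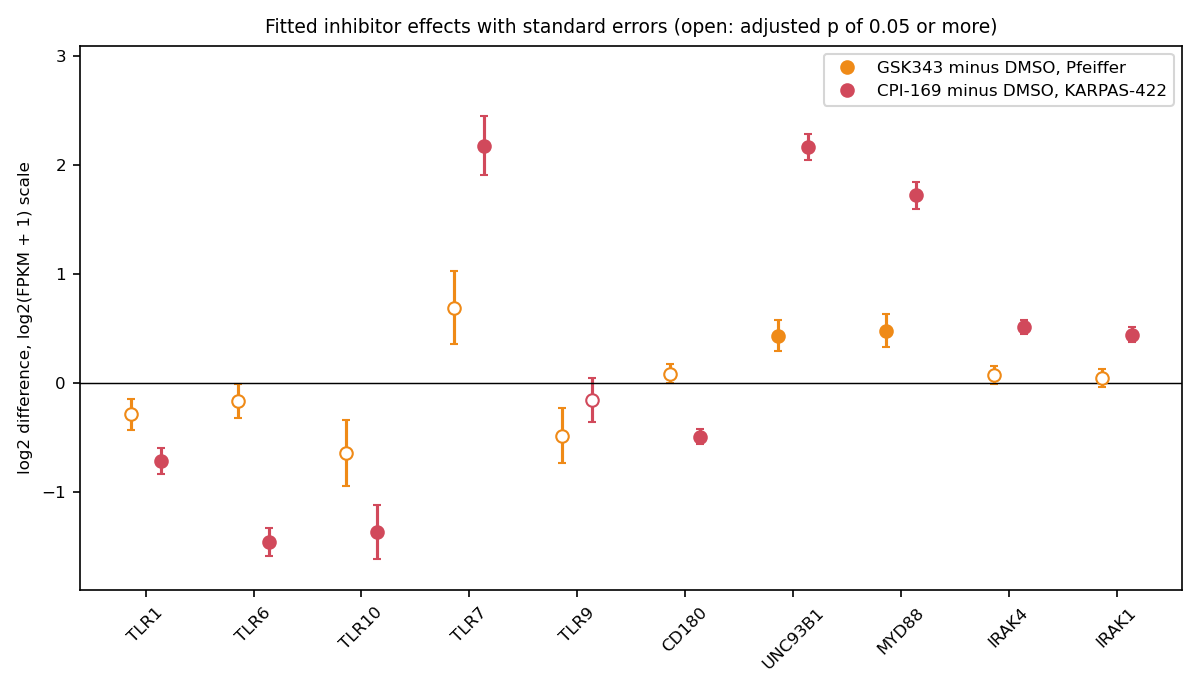
Fitted log2 differences with standard errors for GSK343 minus DMSO in Pfeiffer and CPI-169 minus DMSO in KARPAS-422; filled points passed an adjusted p of 0.05. UNC93B1 (0.44 and 2.17) and MYD88 (0.48 and 1.73) are the genes filled in both.

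The wider pathway was followed in 68 other genes, of which 60 were tested. With CPI-169, 20 were higher, 16 lower and 24 did not pass, near the 54.2% of all tested genes that were called (26.9% higher and 27.3% lower). With GSK343, 13 were higher, 7 lower and 40 did not pass, a total near the 29.5% of all tested genes. Of all tested genes 12% were higher and 17.5% lower, so rises outnumbered falls only among the pathway genes. Whether the 2 splits differ was not tested. The GSK343 count of 20 was 26 without GSK343 replicate 1 and 22 without replicate 2, and 12 and 13 without Pfeiffer DMSO replicates 1 and 2. Median log2 differences were 0.05 with CPI-169 and 0.06 with GSK343, against 0.01 and -0.03 over all tested genes. Genes are named below where they had one of the 4 smallest adjusted p of a role.

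Among 5 tested receptors and co-receptors, TLR4, the lipopolysaccharide receptor gene, was higher with both compounds. TLR4 reached 1 FPKM only in inhibitor-treated libraries. It thus entered the test through the groups where it was high, and its p-values lend no separate support. It was at 1.30 and 2.01 FPKM with GSK343, against 0.187 and 0.0985 FPKM with DMSO, so both replicates were above (log2 difference 1.20, limma, Benjamini-Hochberg adjusted p = 5.93e-05). It averaged 1.58 ± 0.0579 FPKM with CPI-169 and 0.791 ± 0.103 FPKM with DMSO (SD, n = 3 each; log2 difference 0.53). TLR3, the double-stranded RNA receptor gene, fell with CPI-169 to 2.80 ± 0.0961 FPKM, against 5.05 ± 0.205 FPKM with DMSO (SD, n = 3 each).

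Of 14 trafficking and endolysosomal genes, 7 rose and 2 fell with CPI-169, against 26.9% and 27.3% of all tested genes. PLD4, an endolysosomal exonuclease gene that limits nucleic acid sensing, was at 42.3, 39.8 and 44.8 FPKM with CPI-169, against 8.78, 8.86 and 8.01 FPKM with DMSO. Its log2 difference of 2.18 was about as large as that of UNC93B1 (limma, Benjamini-Hochberg adjusted p = 1.16e-07). Its relative PLD3 rose by 0.70. The subunit genes of the AP-3 sorting complex went opposite ways, with AP3B1 higher by 0.70 and AP3D1 lower (log2 difference -0.92). With GSK343, 3 of the 14 rose and 2 fell, against 12% and 17.5% of all tested genes. The cathepsin B gene CTSB was at 41.6 and 46.3 FPKM with GSK343, against 14.7 and 14.9 FPKM with DMSO (log2 difference 1.51). LGMN, which encodes a receptor-processing protease, rose by 0.69, the endolysosomal transporter gene SLC15A4 fell by 0.75 and the receptor chaperone gene CNPY3 fell by 0.39.

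Of 21 other adaptors and kinases, 5 rose and 5 fell with CPI-169, against 26.9% and 27.3% of all tested genes. BTK, the kinase downstream of the B cell receptor that also acts in Toll-like receptor signalling, was at 75.3, 69.6 and 76.6 FPKM with CPI-169, against 34.6, 39.0 and 39.3 FPKM with DMSO (log2 difference 0.95). The ubiquitin ligase genes PELI3 and PELI1 rose by 0.55 and 0.35, and TIRAP, the adaptor that bridges surface receptors to MYD88, fell by 0.68. With GSK343, 2 of the 21 rose and 3 fell, against 12% and 17.5% of all tested genes. PIK3AP1, CHUK and TICAM1 fell by 0.61, 0.38 and 0.40, and TAB2 rose by 0.28.

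Of 9 negative regulators, 2 rose and 4 fell with CPI-169, while 4 rose and 0 fell with GSK343, also 0 at an unadjusted p under 0.05 in limma. The shares over all tested genes were 26.9% (higher) and 27.3% (lower) for CPI-169 and 12% and 17.5% for GSK343. Whether the list differs between the compounds was not tested. TOLLIP, an inhibitor of IRAK1, had a log2 difference of 0.59 with GSK343 and of -0.59 with CPI-169. With CPI-169, RNF216 fell by 0.47, TNIP1 fell by 0.38 and CYLD rose by 0.27. With GSK343, TNFAIP3, which encodes the NF-kappaB inhibitor A20, was at 19.6 and 9.33 FPKM, against 4.04 and 4.95 FPKM with DMSO (log2 difference 1.41). OTUD5 rose by 0.74 and TNIP1 by 0.28.

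Of 11 transcription factors and their inhibitors, 5 rose and 4 fell with CPI-169, and 3 rose and 2 fell with GSK343. The shares over all tested genes were 26.9% (higher) and 27.3% (lower) for CPI-169 and 12% and 17.5% for GSK343. NFKBIB, encoding an inhibitor of NF-kappaB, fell with both compounds. It was at 12.3 and 11.3 FPKM with GSK343, against 18.2 and 19.7 FPKM with DMSO (log2 difference -0.64), and averaged 9.95 ± 1.13 FPKM with CPI-169 and 25.4 ± 2.62 FPKM with DMSO (SD, n = 3 each; -1.27). IRF5, which acts below MYD88, averaged 3.15 ± 0.308 FPKM with CPI-169 and 0.886 ± 0.0443 FPKM with DMSO (SD, n = 3 each; log2 difference 1.14). NFKB2 rose by 0.76 and NFKB1 by 0.48 with CPI-169. With GSK343, NFKBIZ rose by 1.02, NFKB2 by 0.41, and RELB fell by 0.40.

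**Figure D5:**
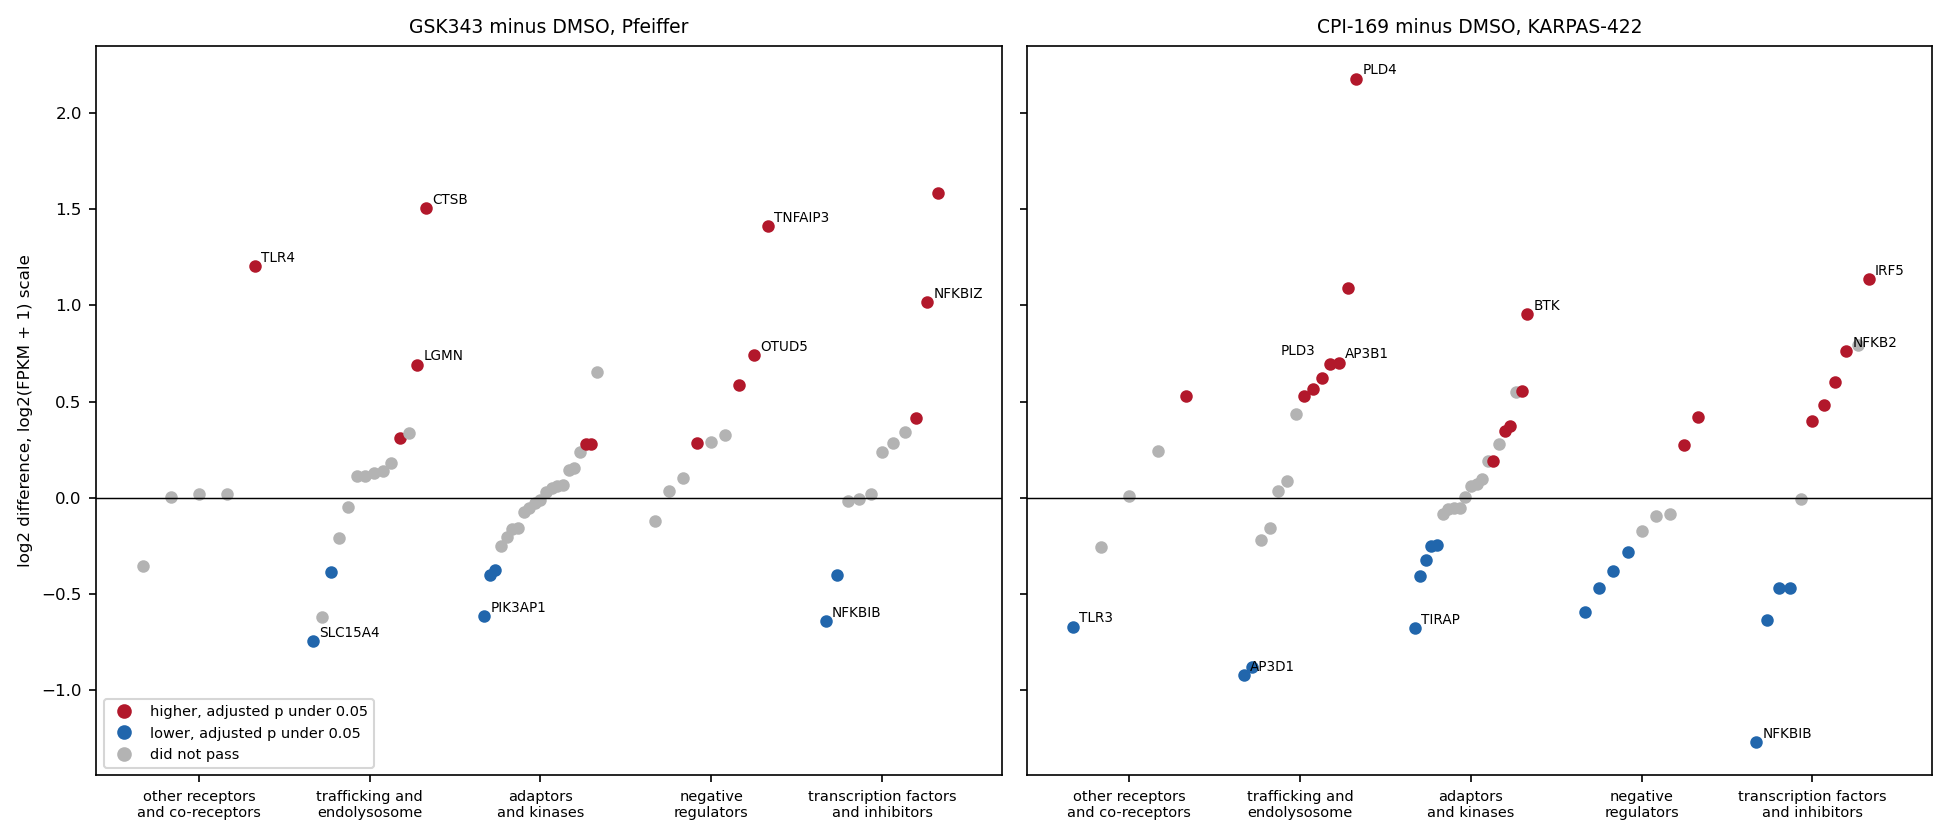
Log2 differences of the 60 other tested pathway genes by role, for GSK343 minus DMSO in Pfeiffer (left) and CPI-169 minus DMSO in KARPAS-422 (right). PLD4 (2.18) is the highest point with CPI-169, and negative regulators hold 4 higher and 0 lower calls with GSK343 against 2 higher and 4 lower with CPI-169.

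Among the 13841 tested genes with a mean of at least 2 FPKM, the pattern most like that of each member was found by Pearson's r of log2(FPKM + 1) over the 12 libraries. These fall into 3 lines and 5 groups, so r is a description and carries no test. For TLR7 the nearest were the interferon-stimulated genes USP18 (0.990) and IFIT3 (0.980) and the aminopeptidase gene LAP3 (0.978). For MYD88 they were IFIT2 (0.992), GAB3 (0.985) and STAT2 (0.978), of which IFIT2 and STAT2 belong to the interferon response. For CD180 they were PCED1B-AS1 (0.999), the B cell transcription factor gene MEF2C (0.999) and TTN-AS1 (0.999). For TLR1 they were C2orf69 (0.996), AKAP8 (0.995) and PRKCD (0.995), and for TLR6 they were TRIB3 (0.996), RP11-645C24.2 (0.996) and ZFP91 (0.995). For TLR10 they were XPOTP1 (0.984), LINC00662 (0.983) and TRMT6 (0.981), and for TLR9 they were PLEKHA2 (0.986), GEN1 (0.981) and VEGFA (0.980). UNC93B1 was most like ZNF517 (0.989), JRKL (0.985) and SAYSD1 (0.983). IRAK4 was most like GNB3 (0.997), OR13A1 (0.995) and LINC00341 (0.993), and IRAK1 was most like KIAA1467 (0.974).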

How the data were processed

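RNA from 12 libraries of 3 cell lines was sequenced. The submitters' processing notes name TopHat 1.4.1, Cufflinks and the build hg19. The deposited table holds FPKM values for 63129 Ensembl genes, which the authors scaled by transcript length and mapped fragments. Symbols and hg19 positions come from that table. Not given in the sources used here are the Cufflinks version, the annotation release, the library kit and whether strand was used, so overlapping and antisense genes are uncertain. Lysis was in Trizol or RLT buffer, with no statement per library. Read counts were not used here; relative depth came from the steps between the lowest FPKM values, which cannot give absolute depth.

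After 77 genes with missing values were left out, 18731 genes were kept that reached 1 FPKM in 2 or more libraries. All 5 groups were fitted together on log2(FPKM + 1) by limma 3.58.1 (R 4.3.3) with a mean-variance trend. The residual degrees of freedom were 7 and the prior ones 3.45, and p-values were adjusted over all genes tested by Benjamini and Hochberg, with 0.05 as threshold. Log2 differences are on that scale, and tests are two-sided. The fit was tested on simulated data. The labels write the compound given to KARPAS-422 in 2 ways, and the name of the treatment protocol is used. The members and lists were chosen with earlier results of these data known. Text names every member in every comparison, other pathway genes that passed with one of the 4 smallest adjusted p of their role and the 3 most alike genes, of which only the first is reported here for IRAK1. Neighbours within 500 kb were outside this rule: those of TLR10, TLR1 and TLR6 are all named, while ACAA1, OXSR1 and UNC93B5 were chosen after their values were seen. Sequence words of 50 bases were compared over GENCODE 29 transcripts. Alternatives were a pseudocount of 0.1, no filter, a minimum of 5 FPKM, quantile normalization, median scaling, no trend, fitting only the libraries compared, a replicate block, and leaving out each library; doing so for the counts of other pathway genes was chosen after seeing the data.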

Additional observations from a re-analysis of the deposited data

Results flagged for a closer look

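For 7 genes, a test of the difference itself found that the inhibitor effect in Pfeiffer (GSK343 minus DMSO) was unlike that in KARPAS-422 (CPI-169 minus DMSO), by limma with Benjamini-Hochberg adjustment. The difference, Pfeiffer minus KARPAS-422 on the log2 scale, was 1.29 for TLR6, -1.48 for TLR7, 0.58 for CD180, -1.24 for MYD88, -1.73 for UNC93B1, -0.40 for IRAK1 and -0.44 for IRAK4. Such a difference was called for 42.6% of all tested genes, and compound and line cannot be told apart. CD180 was below 1 FPKM in all Pfeiffer libraries, where a fall could hardly show, so its difference mostly restates its fall in KARPAS-422. TLR6 averaged 1.45 FPKM in Pfeiffer with DMSO, where a fall reads smaller on this scale than in KARPAS-422. TLR7 was tested only through inhibitor-treated libraries, and its ratio of means was 12.1 with GSK343, from replicate 1 alone, and 9.44 with CPI-169. The calls of TLR7 and IRAK1 were lost in 4 and 2 of the 20 alternative settings.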

How the results depend on the processing

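Over 1200 results of single members by setting, 1109 kept their direction and side of the threshold, 42 fell below it, 34 passed it and 15 turned in sign; the causes were not tested. The number of members called with GSK343, 2 as reported, was 0 without the filter, 0 with only the 4 Pfeiffer libraries fitted and 0 to 7 when single libraries were left out. At an unadjusted p under 0.05 in limma it was 2 without the filter and 0 in the Pfeiffer fit. All genes called with GSK343, 5535 as reported, numbered 0 in the Pfeiffer fit, where 4634 had an unadjusted p under 0.05, and 3003 to 8681 with single libraries left out (3003 and 3537 without Pfeiffer DMSO replicates 1 and 2, 8681 without GSK343 replicate 1). Same-numbered libraries deviated from their group means with r of -0.152, -0.252 and 0.156 in KARPAS-422 and 0.14 in Pfeiffer. With 2 or 3 libraries a group, the deviations are tied to each other by the group mean. These values therefore cannot tell whether the numbers pair the libraries. With a replicate block, 0 members were called with GSK343 (5 at an unadjusted p under 0.05 in limma). TLR1 then passed for the difference of the effects (limma adjusted p = 0.0341).

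Summing both TLR9 rows gave means of 17.4 FPKM in RL, 30.4 with CPI-169 and 35.8 with DMSO in KARPAS-422, against 8.43, 15.4 and 17.1 for the row used. With single libraries left out, the GSK343 effect spanned -0.48 to 0.15 for TLR6, -0.040 to 1.43 for TLR7, -1.29 to 0.015 for TLR10 and -0.016 to 0.19 for CD180. The sign turned for these 4 without GSK343 replicate 1. For IRAK1 it spanned -0.0058 (without GSK343 replicate 2) to 0.096, with -0.00433 without Pfeiffer DMSO replicate 1. The difference of the effects spanned -0.75 to 0.096 for TLR9, turning without GSK343 replicate 1. For RL minus KARPAS-422, IRAK1 spanned -0.035 to 0.040, positive without KARPAS-422 DMSO replicate 1 or RL replicate 2 (0.016), and was 0.054 with median scaling and 0.0015 with the replicate block. MYD88 spanned -0.0013 (without KARPAS-422 DMSO replicate 3) to 0.074. For RL minus Pfeiffer, TLR7 turned to 0.21 with quantile normalization and 0.011 with median scaling, and for KARPAS-422 minus Pfeiffer IRAK1 turned to 0.19 with quantile normalization. None of these had passed.

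Quantile normalization moved the median of all genes by 0.151 for RL minus Pfeiffer and 0.158 for KARPAS-422 minus Pfeiffer, and median scaling by 0.109 for the difference of the effects. Genes higher and lower with GSK343 numbered 2254 and 3281, and 2652 and 2548 after quantile normalization; for the difference they were 3523 and 4460, and 4564 and 3623 after median scaling. For the difference, IRAK1 was lost with either (limma adjusted p = 0.0838 and 0.0516), TLR7 with a pseudocount of 0.1 (0.317) or no filter (0.0613), and TLR1 passed with median scaling (0.0267). At baseline, TLR9 between RL and Pfeiffer was lost without the filter (0.0547) and IRAK4 between RL and KARPAS-422 with quantile normalization (0.0851). With groups of 2 and 3 libraries and no absolute depth, levels under 1 FPKM are the least certain.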
